A study of Mus musculus with 16 samples.

Results

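The comparison described here is that of the arm killed on the International Space Station (ISS): the mice of the exposure to space environment (ESE) group that were killed on orbit, after 22 to 23 days, against the ground controls of the same arm. Its members are 8 of the 16 libraries of the series, chosen by the mission arm of each mouse and not by any measured value. They are 5 ESE libraries and 3 ground control libraries. All 16 mice were female BALB/cAnNTac mice, an albino inbred strain, of about 10 to 16 weeks, with no genetic change stated, and the tissue was hind limb skin taken over the femur. The ESE mice lived in the Rodent Habitat on the ISS, and the ground controls were kept on Earth under similar housing. The labels divide the flown mice by their level of 5-methylcytosine (5-mC), a DNA methylation mark, into a High 5mC group, which the paper calls the non-responder ESE cohort (3 mice in this arm), and a Low 5mC group, the responder ESE cohort (2 mice in this arm). The other 8 libraries belong to the live animal return (LAR) arm, whose 5 ESE mice came back to Earth alive. The arm of a library was not in its labels and was taken from the sample names in the study's supplement. RNA was sequenced after capture of exons, 1 library per mouse, and the values are raw counts of reads per gene.

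Mouse skin is an epidermis of stacked keratinocytes with hair follicles and sebaceous glands, over a dermis with fibroblasts, vessels and nerves. Basal keratinocytes divide on the basement membrane and move up as they make the keratins and lipids of the barrier. Follicles cycle through growth (anagen), regression and rest, kept by stem cells of the bulge, while cells of the upper follicle, where the sebaceous duct opens, have their own stem cells. Dermal vessels are lined by endothelial cells, which grow in response to vascular endothelial growth factor (VEGF). In whole skin, fewer cells of a type and less RNA per cell cannot be told apart.

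The 8 libraries held 4159342 to 14632084 counts, and 2 of them stood apart in depth: ground control 3 with 5628795 counts and non-responder ESE 1 with 4159342. In these libraries Rn45s, the precursor of ribosomal RNA, took 41.3% and 51.9% of the counts, against 20.8% to 36.1% in the other 6. The share of coding reads on the strand opposite to their gene was 90.45% to 91.48% in the ground controls and 91.99% to 96.47% in the ESE mice. The groups did not overlap in this share, and its part in the levels below was not tested. The RNA integrity number (RIN), a score of RNA degradation in which 10 is intact, was low throughout, at 1.8 to 2.7 in the ground controls and 1.2 to 1.9 in the ESE mice. A fit with RIN as a covariate is given beside the main groups of genes below, and the part of RIN in them was not tested beyond it. The groups overlapped in RIN only between 1.8 and 1.9, so this fit cannot fully separate RIN from flight. A value kept or lost in it does not settle the part of RIN. All 10 markers listed for skin cells were measured, with Krt5, a keratin of basal keratinocytes, at 688 to 4103 CPM, its counts as a share of the library scaled to a common total, over the ESE libraries and 1691 to 3775 CPM over the ground controls. Other tissue was also present. Genes of liver and plasma summed to 3976 CPM in responder ESE 1 against 84.4 to 291 CPM in the other 7 libraries, and fast muscle genes summed to 6070 CPM in non-responder ESE 3. Within each group every pair of libraries differed by more than sampling noise. CPM values here are scaled by TMM, a factor that aligns the bulk of genes between libraries, over the total of the genes kept. All levels below are listed in the order ground control 1 to 3, then non-responder ESE 1 to 3 and responder ESE 1 and 2.

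No gene passed the threshold in this arm. Of 13558 genes tested with edgeR's quasi-likelihood F test, 0 had a Benjamini-Hochberg adjusted p under 0.05 (0.0% called), and the smallest adjusted p was 0.989. At an unadjusted p under 0.05 there were 346 genes (2.55%), 173 higher (1.28%) and 173 lower (1.28%) in the ESE mice, where 678 would be reached by chance if no gene differed and all p-values were even. In 113 genes (0.833%) every ESE library was above every ground control, and in 122 (0.9%) every one was below. Over all genes tested the median log2 fold change was 0.01, and 51.1% of genes were above 0 and 48.9% below. The common biological coefficient of variation was 0.455. On counts simulated at the depth of these libraries, with the spread estimated for each gene, the test recovered 1.79% of the genes changed by 1 on the log2 scale, 49.9% of those changed by 2 and 77.9% of those changed by 3. The simulated libraries were drawn independently, without a library apart or other tissue. The recovery in these 8 libraries was therefore not measured, and even in the simulation only large differences were within reach.

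Other tools gave other counts from the same libraries. DESeq2 called 0 genes, with 459 at an unadjusted p under 0.05 and a smallest adjusted p of 0.274. The likelihood ratio test of edgeR called 1 gene, 1700048O20Rik (adjusted p = 0.0483), which passed the filter on low counts only through the ESE mice. Limma-voom with a quality weight for each library called 907 (173 higher and 734 lower). Those weights were 3.11 for ground control 2 and 3.21 for non-responder ESE 3 and from 0.352 to 1.31 for the other 6 libraries. The genes below are therefore given as values that did not pass the main test. Every gene named below had an adjusted p of at least 0.989 in edgeR's quasi-likelihood test, and log2 fold changes are ESE minus ground control.

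Each of the 8 libraries was then left out in turn. No fit called a gene, and the number of genes at an unadjusted p under 0.05 ran from 130 without ground control 1 to 1003 without non-responder ESE 1, and also 1003 without responder ESE 2. Without ground control 2 it was 240, without ground control 3 it was 892, without non-responder ESE 2 it was 319, without non-responder ESE 3 it was 177, and without responder ESE 1 it was 162. Of the 346 genes of the full comparison, 23.1% were still under 0.05 without ground control 1, 40.2% without ground control 2 and 54.9% without ground control 3. Taking out ESE libraries left between 43.1% (non-responder ESE 3) and 87.3% (non-responder ESE 1). With both shallow libraries out (a fit added later, after the values had been seen), 2013 genes (14.4%) were at an unadjusted p under 0.05 and 0 were called by edgeR.

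**Figure D1:**
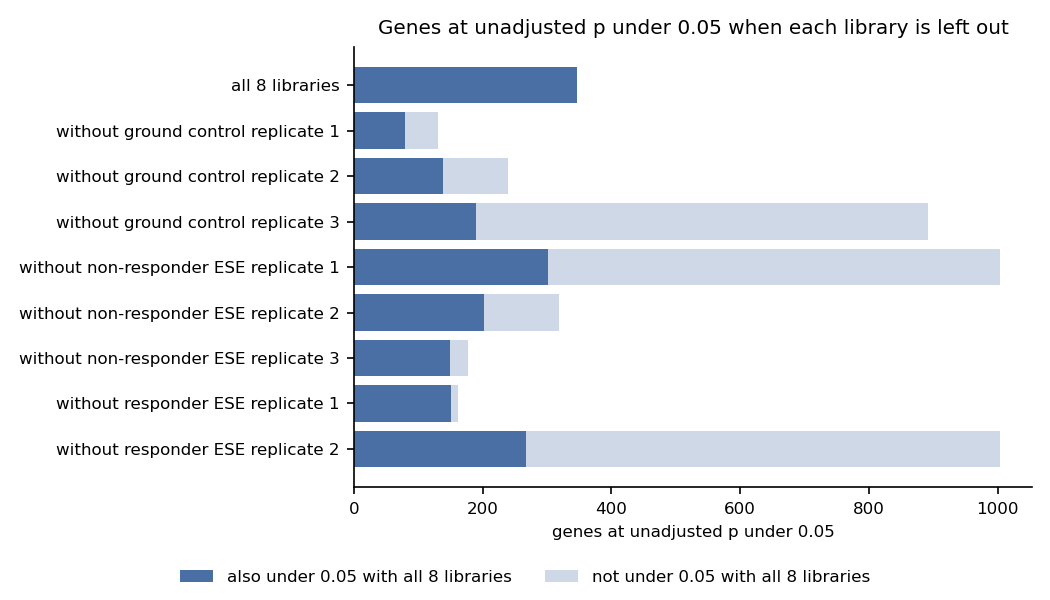
Number of genes at an unadjusted p under 0.05 in edgeR's quasi-likelihood test, for all 8 libraries and with each library left out, split into genes that were also among the 346 of the full comparison and genes that were not. The fewest, 130, remained without ground control 1, and the most, 1003, came without non-responder ESE 1 and without responder ESE 2.

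Across these fits, 30 genes were at an unadjusted p under 0.05 with all libraries and in all 8 fits with 1 left out: 10 higher (0.0738% of genes tested) and 20 lower (0.148%) in the ESE mice. They are called here the genes that held. Of these, 23 showed no overlap between the groups, 7 higher and 16 lower, where 0.833% and 0.9% of all genes tested did so in these directions. The genes were picked for their values in these libraries, so the counts and p-values describe them and do not test them. With RIN as a covariate, a fit that cannot fully separate RIN from flight, all 30 had the same direction and 18 were at an unadjusted p under 0.05. Of all genes in that fit, 0.899% were. Against the ground controls, 29 were under 0.05 with the non-responder mice alone and 25 with the responder mice alone, the ground controls being shared by both comparisons. Of the 30, 29 had an average log2 CPM above 0. The exception, Kcnk4, a potassium channel gene named here after its values were seen, had 14, 11 and 6 counts in the ground controls and 0 to 7 counts in the ESE mice. It passed the filter on low counts only through the ground controls.

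**Figure D2:**
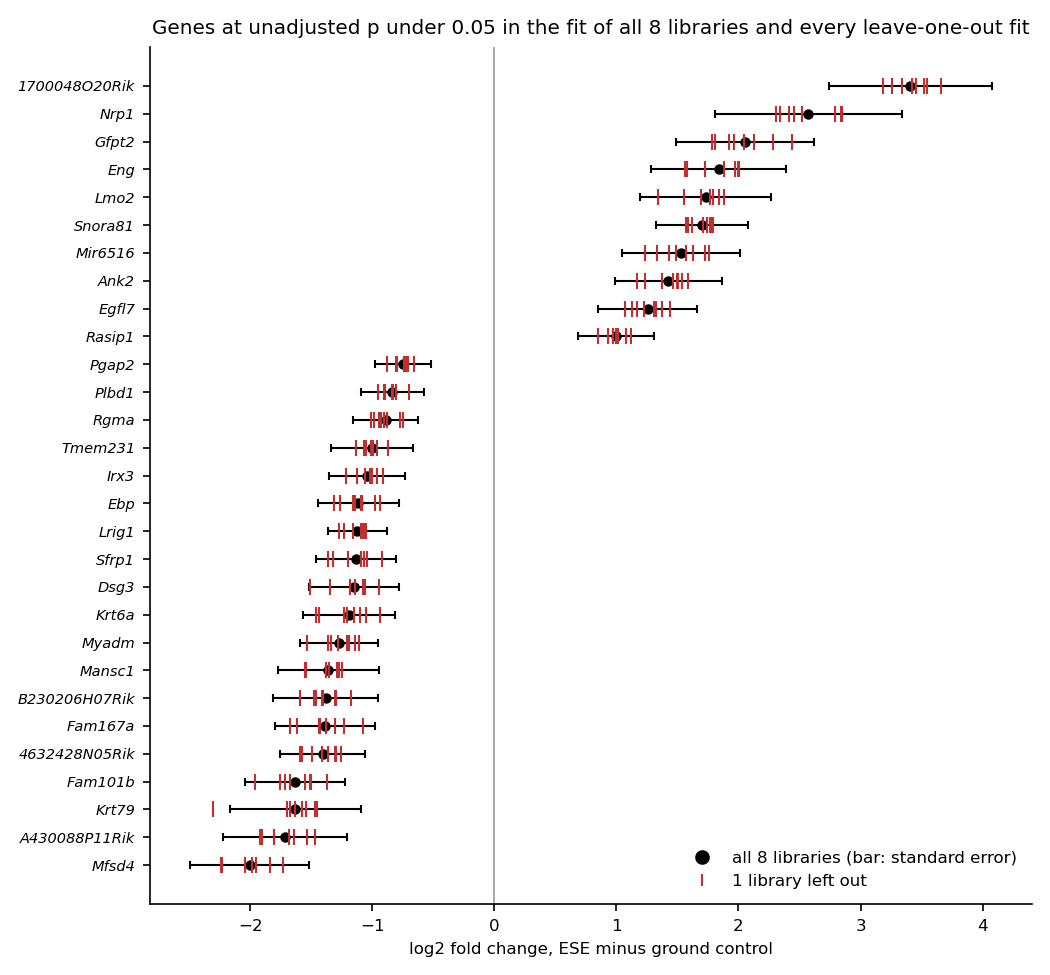
Log2 fold change (ESE minus ground control, bars 1 SE) of the 29 genes that held and had an average log2 CPM above 0, with the 8 values obtained when 1 library was left out as ticks. All 8 ticks lie on the same side of 0 as the full value for each gene, since the genes were chosen for holding.

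The gene of smallest p among the lower ones was Lrig1, which codes for a membrane protein that restrains EGF receptor signalling and marks stem cells of the upper hair follicle. Its levels were 132, 105 and 126 CPM in the ground controls and 61.3, 48.2, 48.7, 43.1 and 76.9 CPM in the ESE mice. Every ESE library lay below every ground control, with 76.9 CPM in the highest ESE library and 105 CPM in the lowest ground control. The log2 fold change was -1.12 (SE 0.24), and the value nearest 0 with a library left out was -1.05 without responder ESE 1. Lrig1 lies on chromosome 6 on the minus strand, and its exons overlap those of Slc25a26 on the other strand. The sources used here do not say if counting took account of strand, and the 2 genes may share reads. Its promoter window, 250 bases before to 50 after the start in RefSeq on GRCm38.p6, is shown because Lrig1 led the lower genes. The window at chr6:94700096-94700395 (minus strand) holds 2 matches to GGGCGG, the GC box letters (searched on both strands, reverse CCGCCC), printed in capitals, which 35.7% of all 32851 promoter windows of this length also hold.
Lrig1 promoter: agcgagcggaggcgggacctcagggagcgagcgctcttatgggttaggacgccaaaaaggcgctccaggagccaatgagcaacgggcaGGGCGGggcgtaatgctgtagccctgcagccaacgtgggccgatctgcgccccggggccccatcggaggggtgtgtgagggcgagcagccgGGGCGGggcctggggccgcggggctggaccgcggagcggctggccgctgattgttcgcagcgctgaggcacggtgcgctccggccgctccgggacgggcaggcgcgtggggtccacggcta

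Of the lower genes that held, Lrig1 is in the hair follicle stem cell list, Krt79 in the sebaceous list and Krt6a in that of wound keratins, and the basal, suprabasal and cornified lists held 0. The lower genes of the next sentences were grouped after their values were seen. Krt79, a keratin of the upper follicle and the sebaceous duct, was at 322, 285 and 262 CPM in the ground controls and 236, 86.1, 62.8, 37.5 and 48.8 CPM in the ESE mice. Although the groups did not overlap, non-responder ESE 1 was close to the ground controls and far above the other 4 ESE mice, whose levels were 37.5 to 86.1 CPM. Its log2 fold change was -1.63 (SE 0.53). Sfrp1, a secreted inhibitor of Wnt signalling, had levels of 29.8, 24.9 and 14.9 CPM in the ground controls and 16.6, 12, 8.49, 7.56 and 9.4 CPM in the ESE mice. Here the groups overlapped, since non-responder ESE 1 was above ground control 3, and the log2 fold change was -1.13 (SE 0.33). Irx3, a homeobox transcription factor, was measured at 21.8, 18.8 and 22.1 CPM in the ground controls and 12.8, 7.49, 10.3, 6.07 and 14.5 CPM in the ESE mice, without overlap, with a log2 fold change of -1.04 (SE 0.31). Plbd1, which codes for a phospholipase B-like protein, was at 63.8, 58.1 and 65.1 CPM in the ground controls and 46.7, 39.8, 33.9, 33.5 and 21.3 CPM in the ESE mice. All 5 ESE mice were below the ground controls, which lay close together, and the log2 fold change was -0.84 (SE 0.26).

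Krt6a, a keratin of the companion layer of the follicle and of wounded epidermis, ran from 33.2 to 71.6 CPM in the ground controls and 13.2 to 39.9 CPM in the ESE mice, with a log2 fold change of -1.19 (SE 0.38). Dsg3, a desmosomal cadherin that holds basal keratinocytes together, was named after its values were seen. It ran from 149 to 255 CPM in the ground controls and 62.6 to 172 CPM in the ESE mice, with the highest ESE value in non-responder ESE 1 and a log2 fold change of -1.15 (SE 0.37). Rgma, a co-receptor for bone morphogenetic proteins (BMP), was at 34.5, 43.9 and 31.4 CPM in the ground controls and 22.2, 18.5, 19.9, 12.6 and 26 CPM in the ESE mice, without overlap, and its log2 fold change was -0.89 (SE 0.27). For these genes the levels of the ESE mice lay mostly below those of the ground controls, with non-responder ESE 1 often the nearest to them. Adding RIN as a covariate gave log2 fold changes of -0.92 for Lrig1, -0.88 for Plbd1 and -0.87 for Rgma, still at an unadjusted p under 0.05. It gave -1.43 for Krt79, -0.98 for Sfrp1, -0.75 for Irx3, -0.85 for Krt6a and -1.06 for Dsg3, which were no longer under 0.05.

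**Figure D3:**
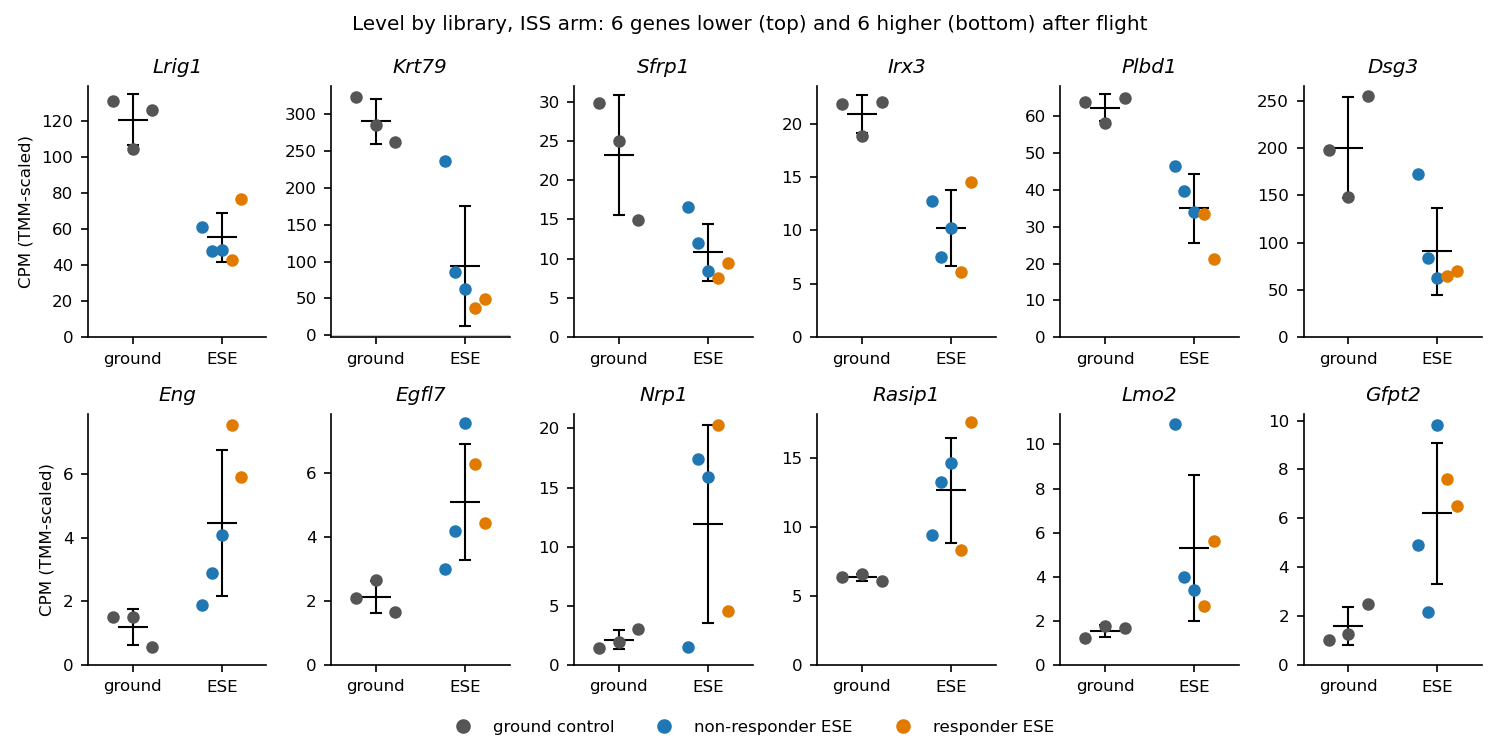
Levels (TMM-scaled CPM) of 12 genes that held, 6 lower and 6 higher in the ESE mice, in each of the 8 libraries, with group means and SD as bars. Lrig1 was at 105 to 132 CPM in the ground controls and 43.1 to 76.9 CPM in the ESE mice, and Eng was at 0.551 to 1.51 and 1.88 to 7.56 CPM in the same order.

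The remaining lower genes that held were of many functions. 4632428N05Rik, called Vsir in RefSeq, codes for VISTA, a receptor that restrains T cells, and was at 12, 10.7 and 7.17 CPM in the ground controls and 4.89, 2.6, 3.76, 2.68 and 5.33 CPM in the ESE mice. Its groups did not overlap, and its log2 fold change was -1.41 (SE 0.35). Myadm, a membrane protein gene, was at 15.6, 16.2 and 7.72 CPM in the ground controls and 6.77, 5.54, 6.66, 4.23 and 4.55 CPM in the ESE mice, also without overlap, with a log2 fold change of -1.27 (SE 0.32). Ebp, an isomerase of cholesterol synthesis on the X chromosome, was at 17.1, 10 and 14.3 CPM in the ground controls and 9.41, 6.55, 3.81, 5.65 and 7.07 CPM in the ESE mice, and the highest ESE mouse, non-responder ESE 1, stayed just below the lowest ground control. Its log2 fold change was -1.11 (SE 0.33). Fam101b, a filamin-binding protein gene, was at 10.6, 4.17 and 9.37 CPM in the ground controls and 3.39, 3.3, 2.79, 1.96 and 1.65 CPM in the ESE mice, with a log2 fold change of -1.63 (SE 0.41) and the value nearest 0, -1.37, without ground control 1. With RIN as a covariate Myadm was at -1.1, still at an unadjusted p under 0.05. In that fit 4632428N05Rik (-1.04), Ebp (-0.91) and Fam101b (-1.3) were no longer under 0.05.

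Mfsd4, a gene of the major facilitator family of membrane carriers, was the lower gene with the greatest fold among those with average log2 CPM above 0 that held, at -2.0 (SE 0.49). It rested on few reads, with 24, 30 and 13 counts in the ground controls and 2, 6, 11, 9 and 10 counts in the ESE mice. In CPM its groups did not overlap, but it passed the filter on low counts only through the ground controls, the group where it was higher. In the same direction, Pgap2, which acts in the maturation of GPI anchors, Tmem231, a protein of the base of the primary cilium, and Mansc1, a membrane protein gene, were named after their values were seen. On the log2 scale Pgap2 differed by -0.75 (SE 0.23), Tmem231 by -1.0 (SE 0.34) and Mansc1 by -1.36 (SE 0.42). Fam167a had a log2 fold change of -1.39 (SE 0.41) with overlap between the groups. The RNA genes B230206H07Rik, at -1.38 (SE 0.43), and A430088P11Rik, at -1.71 (SE 0.51), overlap exons of Eps8l2 and Fam83f on the other strand and are uncertain for that reason. With RIN as a covariate Mfsd4 (-2.02), Pgap2 (-0.82), Tmem231 (-1.17) and Mansc1 (-1.92) were still at an unadjusted p under 0.05. Fam167a (-0.98), B230206H07Rik (-1.2) and A430088P11Rik (-1.45) were not.

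Some of the lowest p-values rested on 1 ground control. Pyy, which codes for the hormone peptide YY, was at 61.2, 4.09 and 3.31 CPM in the ground controls and 3.76, 0.885, 1.13, 1.37 and 1.16 CPM in the ESE mice. Ground control 1 was far above all other libraries, and non-responder ESE 1 was above ground control 3. The log2 fold change of -3.99 (SE 0.92) came to -1.31 without ground control 1, and it was at an unadjusted p under 0.05 in 7 of the 8 fits with a library left out. Pnpla5, a lipase of the patatin-like family, had the same shape at 10.9, 1.04 and 2.21 CPM in the ground controls and 1.88, 0.059, 0.591, 0.238 and 0.484 CPM in the ESE mice. Its log2 fold change was -3.27 (SE 0.96) and -1.62 without ground control 1. Fa2h, which makes 2-hydroxylated fatty acids of skin lipids, was at 2.21 to 28.8 CPM in the ground controls, again highest in ground control 1, and 0.161 to 5.27 CPM in the ESE mice, and differed by -3.44 (SE 1.12) on the log2 scale, or by -1.2 with ground control 1 left out.

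Among the 10 higher genes that held, Eng and Egfl7 are in the endothelial list, and Rasip1, Lmo2 and Nrp1, grouped with them after their values were seen, are described beside them. Eng codes for endoglin, a co-receptor for TGF-beta family ligands on endothelium, and was at 1.51, 1.52 and 0.551 CPM in the ground controls and 1.88, 2.89, 4.08, 7.56 and 5.91 CPM in the ESE mice. All ESE mice were above all ground controls, and both responder mice were above the 3 non-responder mice. The log2 fold change was 1.84 (SE 0.55), and the value nearest 0 was 1.56 without responder ESE 1. In the shallow libraries these levels rested on 2 counts (ground control 3) and 5 counts (non-responder ESE 1), and exons of Eng overlap those of Fpgs on the other strand, so the source of its reads is uncertain. Egfl7, a protein secreted by endothelial cells, was at 2.09, 2.65 and 1.65 CPM in the ground controls and 3.01, 4.19, 7.57, 6.31 and 4.46 CPM in the ESE mice. The groups did not overlap, and the log2 fold change was 1.26 (SE 0.41).

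Rasip1, a Ras-interacting protein that endothelial cells need to form a vessel lumen, was at 6.4, 6.58 and 6.06 CPM in the ground controls and 9.41, 13.3, 14.7, 8.33 and 17.6 CPM in the ESE mice. The ground controls lay close together and every ESE mouse was above them, with a log2 fold change of 1.0 (SE 0.31). Lmo2, a transcription cofactor of blood and endothelial cells, was at 1.22, 1.76 and 1.65 CPM in the ground controls and 10.9, 4.01, 3.38, 2.68 and 5.62 CPM in the ESE mice, without overlap and highest in non-responder ESE 1, and its log2 fold change was 1.73 (SE 0.54). Nrp1, a co-receptor for VEGF and semaphorins, was at 1.44, 1.92 and 3.03 CPM in the ground controls and 1.5, 17.4, 15.9, 20.3 and 4.55 CPM in the ESE mice. Its groups overlapped, because non-responder ESE 1, with 4 counts, was at the level of the ground controls, whereas 3 ESE mice were at 15.9 to 20.3 CPM. The log2 fold change was 2.57 (SE 0.76). The values with RIN as a covariate were 1.99 for Eng, 1.34 for Egfl7, 1.08 for Rasip1, 1.71 for Lmo2 and 1.99 for Nrp1, and Nrp1 alone of these was no longer at an unadjusted p under 0.05.

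The promoter windows of Eng, Egfl7, Rasip1 and Nrp1 are shown because these genes were described together and had a RefSeq window, which was not matched for Lmo2. They are printed with matches to AGGAAG in capitals (searched on both strands, reverse CTTCCT). These are the core letters recognised by ETS factors, a family that acts in endothelium and in many other cells. Of all promoter windows of this length 35.4% hold a match, and a match describes letters and does not show a bound site. The windows are from RefSeq on GRCm38.p6, all on the plus strand: Eng at chr2:32646345-32646644 with 2 matches, Egfl7 at chr2:26580833-26581132 with 3, Rasip1 at chr7:45627287-45627586 with 1 and Nrp1 at chr8:128358823-128359122 with 1. Egfl7 has 3 windows in RefSeq, and the one nearest the start in the count table is given. RefSeq windows were matched for 18 of the 30 genes.
Eng promoter: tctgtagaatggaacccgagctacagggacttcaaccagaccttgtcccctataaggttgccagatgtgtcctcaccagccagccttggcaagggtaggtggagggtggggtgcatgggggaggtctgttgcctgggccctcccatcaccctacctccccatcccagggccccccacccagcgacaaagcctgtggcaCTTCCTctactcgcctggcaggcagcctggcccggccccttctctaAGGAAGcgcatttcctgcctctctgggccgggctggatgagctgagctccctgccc
Egfl7 promoter: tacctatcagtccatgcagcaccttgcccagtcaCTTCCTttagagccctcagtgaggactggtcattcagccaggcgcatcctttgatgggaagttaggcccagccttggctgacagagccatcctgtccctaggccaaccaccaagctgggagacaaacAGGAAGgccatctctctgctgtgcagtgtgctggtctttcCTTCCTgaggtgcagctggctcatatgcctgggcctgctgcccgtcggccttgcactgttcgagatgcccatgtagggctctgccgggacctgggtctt
Rasip1 promoter: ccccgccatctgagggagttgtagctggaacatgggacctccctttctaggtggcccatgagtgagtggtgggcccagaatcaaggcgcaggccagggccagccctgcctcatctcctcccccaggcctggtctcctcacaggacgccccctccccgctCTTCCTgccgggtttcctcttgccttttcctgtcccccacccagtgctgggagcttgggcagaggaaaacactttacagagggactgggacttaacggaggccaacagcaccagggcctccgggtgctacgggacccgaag
Nrp1 promoter: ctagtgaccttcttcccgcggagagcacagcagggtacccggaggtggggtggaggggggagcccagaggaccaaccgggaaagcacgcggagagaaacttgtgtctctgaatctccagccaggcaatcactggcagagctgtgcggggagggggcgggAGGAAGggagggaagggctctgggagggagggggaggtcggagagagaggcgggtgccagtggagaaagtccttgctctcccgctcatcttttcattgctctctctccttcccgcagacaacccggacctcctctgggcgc

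Of the 20 genes of the endothelial list, 15 passed the filter on low counts and were tested. Of these 15, 14 had a log2 fold change above 0, against 51.1% of all genes. At an unadjusted p under 0.05 there were 3 (background 1.28%), with 0 at an adjusted p under 0.05. The median of the list was 0.97. With 1 library left out, over the members tested in each fit, it ran from 0.52 without responder ESE 1 to 1.34 without ground control 3. The median was 0.68 with RIN as a covariate. Cdh5, the cadherin of endothelial junctions, was at 0.791, 0.802 and 1.1 CPM in the ground controls and 1.13, 0.708, 3.38, 3.39 and 4.07 CPM in the ESE mice, with overlap and a log2 fold change of 1.57 (SE 0.65). Flt4, the receptor of lymphatic endothelium for VEGF-C, had a log2 fold change of 2.57 (SE 1.21), which rested on responder ESE 1 with 6.43 CPM, while the other 4 ESE mice were at 0.376 to 0.969 CPM. With 1, 4 and 3 counts in the ground controls, Flt4 passed the filter only through the ESE mice, so its direction was not free. It was tested in 5 of the 8 fits with a library left out. Mural cell genes, of pericytes and vessel muscle, had a median of 0.61 with 7 of 10 above 0, and the median ran from 0.17 without non-responder ESE 3 to 0.84 without ground control 3. Among them Kcnj8, a potassium channel subunit of pericytes, was at 0 or 1 counts in each ground control and at 1, 9, 18, 14 and 14 counts in the ESE mice. Kcnj8 also passed the filter only through the ESE mice. The lowest mural member, Cspg4, had a log2 fold change of -0.96. Summed levels of the endothelial list nevertheless overlapped, at 23.6 to 41.9 CPM in the ground controls and 27.2 to 85.1 CPM in the ESE mice.

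The VEGF pathway list was close to all genes, with 13 of 19 genes above 0 and a median of 0.069. In it 1 gene, Nrp1, was at an unadjusted p under 0.05 (background 1.28%). Vegfa, the main growth factor of vessels, was at 26.1, 38.2 and 86.8 CPM in the ground controls and 22.2, 74.1, 93.7, 108 and 57.8 CPM in the ESE mice, and its log2 fold change was 0.51 (SE 0.52). Its lowest and its highest level were both in ESE mice. Vegfb, a related ligand, had -0.52 (SE 0.35), Flt1, a VEGF receptor, had 0.24 (SE 0.55), and Araf, a kinase of the MAP kinase pathway, had 0.10 (SE 0.25), as log2 fold changes.

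The other higher genes that held were 1700048O20Rik, Snora81, Gfpt2, Ank2 and Mir6516. The gene with the smallest p of all, 1700048O20Rik, a RIKEN gene without a known role, had 2, 2 and 0 counts in the ground controls and 5, 23, 36, 21 and 10 counts in the ESE mice. It passed the filter on low counts only through the ESE mice, the group where it was higher. Its direction was therefore fixed by the filter, and its rank by p is no support for it. In CPM the ESE mice were all above the ground controls, at 0.969 to 1.93 against 0 to 0.16, and the log2 fold change was 3.41 (SE 0.67). Snora81, a small nucleolar RNA of the class that guides pseudouridylation, was at 1.29, 1.68 and 1.65 CPM in the ground controls and 4.89, 3.72, 4.03, 5.89 and 6.49 CPM in the ESE mice, without overlap, with a log2 fold change of 1.7 (SE 0.38). Gfpt2, an enzyme at the entry of the hexosamine pathway, was at 1.01, 1.28 and 2.48 CPM in the ground controls and 4.89, 2.18, 9.83, 7.62 and 6.49 CPM in the ESE mice. Non-responder ESE 2 lay within the ground controls, and the log2 fold change was 2.06 (SE 0.57). Ank2, which codes for ankyrin-B, an adaptor between membrane proteins and the cytoskeleton, was at 1.65, 2.49 and 2.48 CPM in the ground controls and 4.51, 5.31, 9.51, 6.61 and 3.2 CPM in the ESE mice, without overlap, with a log2 fold change of 1.43 (SE 0.44).

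Mir6516, a microRNA gene on chromosome 11, was at 3.67, 2.89 and 5.24 CPM in the ground controls and 7.9, 4.6, 13.9, 9.76 and 19.4 CPM in the ESE mice, with non-responder ESE 2 inside the range of the ground controls and a log2 fold change of 1.53 (SE 0.48). A library of captured exons does not measure mature microRNAs, so the reads over the locus need not come from the mature forms, and the mature sequences are printed to identify it, with the seed, bases 2 to 8, in capitals. They are from RefSeq on GRCm38.p6, plus strand, at chr11:117077370-117077391 for the 5p arm and chr11:117077412-117077433 for the 3p arm.
mmu-miR-6516-5p: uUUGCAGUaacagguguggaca
mmu-miR-6516-3p: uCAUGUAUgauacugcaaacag

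Further higher genes of small p did not hold in all 8 fits. Rspo1, a secreted enhancer of Wnt signalling, was at 1.51, 2.57 and 2.21 CPM in the ground controls and 4.14, 3.83, 5.21, 5.12 and 4.46 CPM in the ESE mice, so that the groups did not overlap. Its log2 fold change was 1.13 (SE 0.36), and its unadjusted p was under 0.05 in 7 of the 8 fits with a library left out. Emilin2, an elastic fibre protein, gave 1.04 (SE 0.33) as its log2 fold change and had an unadjusted p under 0.05 in 7 of them.

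Basal keratinocyte genes were all below 0: 0 of 11 tested had a log2 fold change above 0, and 0 were at an unadjusted p under 0.05 (edgeR, 0 at an adjusted p under 0.05). The median was -0.74 and stayed below 0 with each library left out, from -1.07 without non-responder ESE 1 to -0.43 without ground control 1. It was -0.24 with RIN as a covariate. Krt14, the partner keratin of Krt5, was at 1774, 1593 and 879.6 CPM in the ground controls and 1904, 332, 332, 218 and 462 CPM in the ESE mice. Non-responder ESE 1 was the highest of all libraries and the other 4 ESE mice the lowest of all, so the groups overlapped, and the log2 fold change was -1.12 (SE 0.67). Col17a1, the collagen of hemidesmosomes, had a log2 fold change of -0.96 (SE 0.57). Suprabasal keratinocyte genes had 1 of 13 above 0 and a median of -0.41 (-0.77 without non-responder ESE 1 to -0.22 without ground control 1), and genes of the cornified envelope had 13 of 29 above 0 and a median of -0.011.

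Hair follicle stem cell genes had the most members at an unadjusted p under 0.05 among the follicle lists: 15 of 18 were below 0, 3 lower and 0 higher were under 0.05 (background 1.28% in each direction), and the median was -0.63. With a library left out it ran from -0.85 without non-responder ESE 1 to -0.34 without ground control 1, and it was -0.47 with RIN as a covariate. Lrig1 is among those 3. Sox9, a transcription factor of bulge and outer root sheath cells, was at 55.2, 57 and 109 CPM in the ground controls and 67, 42.7, 27, 24 and 15.7 CPM in the ESE mice, with overlap and a log2 fold change of -1.07 (SE 0.44), which was -0.69 without ground control 3. Postn, periostin, a matrix protein around the bulge, was at 336, 137 and 47.1 CPM in the ground controls and 139.6, 22.1, 34.4, 38.3 and 55.7 CPM in the ESE mice, and differed by -1.6 (SE 0.67) on the log2 scale. Ground control 1 was above the other libraries, and with it left out the value was -0.72, with an unadjusted p under 0.05 in 3 of the 8 fits with a library left out.

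Genes of growing hair depended on single libraries. The inner root sheath list, of the layer that moulds the hair shaft, had a median of -0.81, but 2.76 without ground control 3, in which its genes summed to 169419 CPM. Tchh, trichohyalin, its main granule protein, was at 9109.7, 4539 and 132621 CPM in the ground controls and 37503, 33334, 17903, 22174 and 10416 CPM in the ESE mice. Its log2 fold change was -1.01 (SE 0.95) with all libraries and 1.83 without ground control 3. Hair shaft keratins had a median of -0.21 and 2.35 without the same library. Melanocyte genes, which make pigment enzymes in anagen follicles, were above 0 in 13 of 13 and had a median of 2.0, which ran from 0.89 without non-responder ESE 2 to 2.96 without ground control 3 with a library left out and was -0.18 with RIN as a covariate. Tyr, tyrosinase, was at 0.0719, 2.65 and 4.96 CPM in the ground controls and 0.752, 60.2, 14.1, 25.8 and 0.872 CPM in the ESE mice. The 3 ESE mice of highest level were above all ground controls, non-responder ESE 1 and responder ESE 2 were within their range, and the log2 fold change was 3.16 (SE 1.5).

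**Figure D4:**
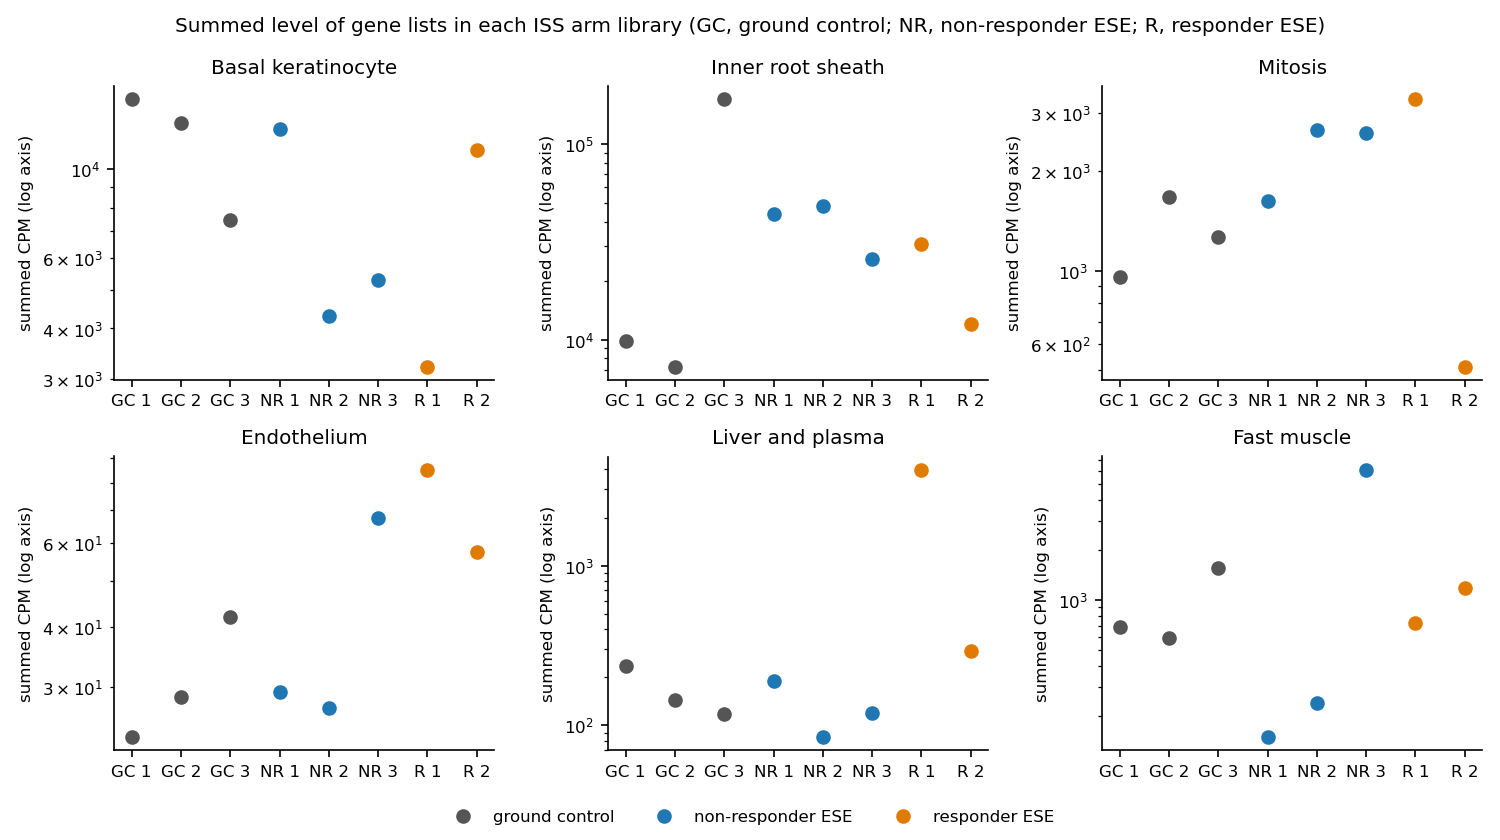
Summed CPM (log axis) of 6 gene lists in each of the 8 libraries. Liver and plasma genes stood out in responder ESE 1 (3976 CPM), fast muscle genes in non-responder ESE 3 (6070 CPM) and inner root sheath genes in ground control 3 (169419 CPM).

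Genes of mitosis were above 0 in 40 of 41, with a median of 0.59 that stayed above 0 with each library left out (0.39 without ground control 1 to 0.83 without responder ESE 2). Only 1 member, Trip13, an ATPase of the spindle checkpoint, was at an unadjusted p under 0.05 (background 1.28%), with a log2 fold change of 1.33 (SE 0.53). The summed levels were 961 to 1674 CPM in the ground controls and 513 to 3303 CPM in the ESE mice, where the lowest value was that of responder ESE 2. Cenpf, a kinetochore protein, showed this spread at 82, 143 and 110.3 CPM in the ground controls and 131, 259, 308, 418 and 55.3 CPM in the ESE mice, with a log2 fold change of 1.07 (SE 0.57). The median of the list was 0.14 with RIN as a covariate. DNA replication genes had a median of 0.30 (0.16 without non-responder ESE 2 to 0.50 without ground control 2) with 35 of 39 above 0. Their 1 member at an unadjusted p under 0.05 (background 1.28%) was Cdc6, which loads the replicative helicase. Cdc6 was at 3.38, 5.77 and 5.51 CPM in the ground controls and 7.15, 8.43, 8.38, 8.87 and 8.33 CPM in the ESE mice. All 5 ESE mice were above all ground controls, and its log2 fold change was 0.77 (SE 0.29). DNA repair genes had a median of 0.25 (0.14 without responder ESE 1 to 0.39 without ground control 2), with 27 of 36 above 0 and 0 at an unadjusted p under 0.05 in edgeR.

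Hypoxia genes, the targets of hypoxia-inducible factor, had 14 of 22 members below 0 and 5 lower at an unadjusted p under 0.05 (background 1.28%), with a median of -0.14 (-0.37 without non-responder ESE 1 to -0.032 without ground control 2). Their summed levels did not overlap, at 830.2 to 891 CPM in the ground controls and 549 to 773 CPM in the ESE mice. How many of the 61 lists would separate in this way by chance was not tested, so the separation only describes this list. Slc2a1, the glucose transporter GLUT1, was at 80.7, 77.7 and 27 CPM in the ground controls and 48.2, 18, 17.5, 12 and 38.2 CPM in the ESE mice. Non-responder ESE 1 and responder ESE 2 were above ground control 3, and the log2 fold change was -1.23 (SE 0.50). Egln3, an oxygen-sensing prolyl hydroxylase, had -0.76 (SE 0.27), Pfkp, a phosphofructokinase of glycolysis whose exons overlap Pitrm1 on the other strand, had -0.81 (SE 0.32), and P4ha1, which hydroxylates collagen, had -0.79 (SE 0.34), as log2 fold changes. P4ha1 was at -0.51 without ground control 2. With a library left out, the unadjusted p was under 0.05 in 6 of the 8 fits for Egln3, 5 for Pfkp, 3 for Slc2a1 and 2 for P4ha1. The list had 0 genes that held. With RIN as a covariate none of these named genes was under 0.05. Adding RIN as a covariate put the median of the list at -0.062. 

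Lipid genes of the skin lay below 0 on balance. Sebaceous gland genes had 7 of 19 above 0, a median of -0.39 (-0.68 without non-responder ESE 1 to -0.072 without ground control 1) and 2 lower at an unadjusted p under 0.05 (background 1.28%). Cholesterol synthesis genes had 4 of 22 above 0 and a median of -0.27 (-0.44 without non-responder ESE 1 to -0.12 without ground control 1 with a library left out), with Ebp as the 1 member under 0.05 (background 1.28%). Enzymes of barrier lipids had 3 of 22 above 0, a median of -0.31 (-0.57 without non-responder ESE 1 to -0.058 without ground control 1) and 0 under 0.05 in edgeR. With RIN as a covariate the medians were 0.24, -0.18 and 0.13 in the same order, so the sign was kept by the cholesterol list alone. Fatty acid synthesis genes had a median of -0.0021, and adipocyte genes 0.14.

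**Figure D5:**
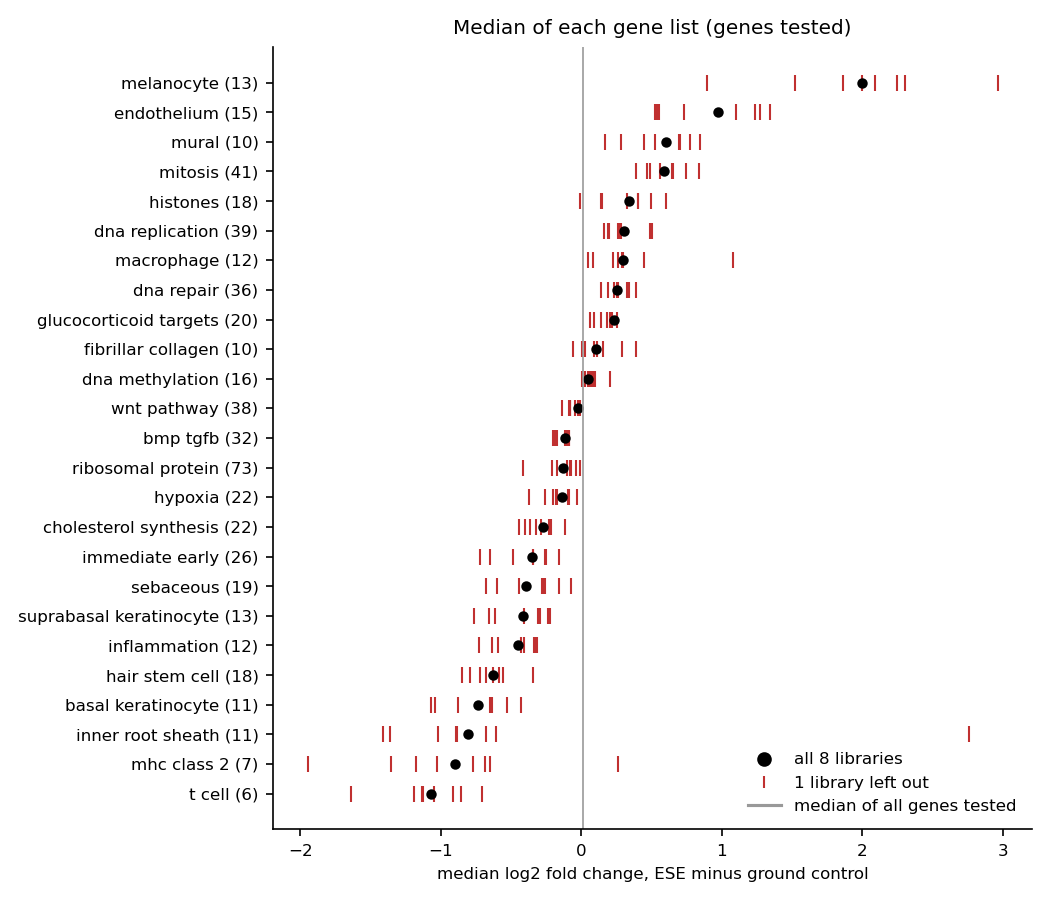
Median log2 fold change (ESE minus ground control) of 25 gene lists, with the 8 medians obtained when 1 library was left out as ticks and the median of all genes tested as a line. The endothelial, mitosis and basal keratinocyte medians (0.97, 0.59 and -0.74) kept their sign in all 8 fits, and those of the inner root sheath and of MHC class II (-0.81 and -0.90) did not.

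Matrix genes lay on both sides of 0. The elastic fibre and matrix list had, of 29 tested, 2 higher and 4 lower members at an unadjusted p under 0.05 (background 1.28% in each direction), with a median of 0.28 that reached -0.021 without ground control 1. Ltbp2, a latent TGF-beta binding protein that overlaps D030025P21Rik on the other strand, was at 28.8, 9.94 and 14.3 CPM in the ground controls and 8.28, 7.31, 2.63, 5.48 and 9.4 CPM in the ESE mice and had a log2 fold change of -1.44 (SE 0.45). Its groups did not overlap, and the value was -0.89 with ground control 1 left out. Thbs1, thrombospondin, a matrix protein that restrains vessel growth and activates TGF-beta, was at 254, 169.5 and 256 CPM in the ground controls and 182, 36.4, 83.2, 79.8 and 141 CPM in the ESE mice with overlap and a log2 fold change of -1.12 (SE 0.44). Loxl3, a lysyl oxidase that crosslinks collagen and overlaps Htra2 on the other strand, was on the higher side with 1.42 (SE 0.50). Timp3, an inhibitor of matrix proteases, was at 51.8, 21.6 and 72.8 CPM in the ground controls and 35.4, 19.8, 17.7, 14.9 and 8.14 CPM in the ESE mice, with a log2 fold change of -1.36 (SE 0.47). Fibrillar collagens had a median of 0.11 (-0.057 without non-responder ESE 3 to 0.39 without ground control 3), with 0 of 10 genes at an unadjusted p under 0.05 in edgeR.

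The immune lists differed in their side of 0. T cell genes had 1 of 6 above 0 and a median of -1.07, which ran from -1.64 without non-responder ESE 1 to -0.71 without ground control 2, and Cd3e, a chain of the T cell receptor complex, had 31, 45 and 1 counts in the ground controls and 3 to 12 counts in the ESE mice. MHC class II genes had 0 of 7 above 0 and a median of -0.90, which ran from -1.95 without non-responder ESE 1 to 0.26 without ground control 2 with a library left out. Cd74, the invariant chain of MHC class II, was at 25.2, 118 and 8.82 CPM in the ground controls and 74.9, 2.83, 4.35, 11.2 and 16.9 CPM in the ESE mice, high in ground control 2 and non-responder ESE 1, with a log2 fold change of -1.27 (SE 1.06). The inflammation list had 1 of 12 above 0, a median of -0.45 (-0.73 without ground control 2 to -0.32 without non-responder ESE 3), and 2 lower members at an unadjusted p under 0.05 (background 1.28%). These were Cxcl14, a chemokine of epithelia, at -0.88 (SE 0.31), and Il33, an alarmin cytokine, at -1.52 (SE 0.64), as log2 fold changes. The median of that list was 0.046 with RIN as a covariate. Macrophage genes had 10 of 12 above 0 and a median of 0.30, which ran from 0.050 without ground control 1 to 1.08 without ground control 3 and was -0.14 with the non-responder mice alone. The mast cell list had 3 of 4 above 0 and a median of 0.98. With the non-responder mice alone, where the filter left out Hdc, the median was -0.15. Its highest member, Hdc, which makes histamine, gave 1.62 (SE 0.52) as its log2 fold change and no overlap between groups. Hdc rested on 7, 4 and 1 counts in the ground controls and 3 to 29 counts in the ESE mice. It passed the filter only through the ESE mice, so its direction was not free. The lowest member, Mcpt4, was at -1.13.

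Stress and clock genes gave little. Of the clock lists 0 genes were at an unadjusted p under 0.05 in edgeR, and Nr1d1, the clock repressor REV-ERB alpha, was at 150.5, 129 and 48 CPM in the ground controls and 49.7, 26.9, 44.8, 17.9 and 115 CPM in the ESE mice with a log2 fold change of -1.11 (SE 0.57). Immediate early genes had 20 of 26 below 0 and a median of -0.35 (-0.72 without ground control 2 to -0.16 without ground control 1), which was 0.12 with RIN as a covariate. In this list 1 member, Btg2, an antiproliferative gene, was under 0.05 (background 1.28%) at -1.01 (SE 0.44). Without ground control 1 Btg2 was at -0.41, and its unadjusted p was under 0.05 in 4 of the 8 fits with a library left out. Glucocorticoid targets had a median of 0.23 (0.061 without non-responder ESE 3 to 0.25 without non-responder ESE 1), and their 1 member under 0.05 (background 1.28%) was Hif3a, a hypoxia-inducible factor subunit, with 1.94 (SE 0.74) as its log2 fold change and an unadjusted p under 0.05 in 2 of the 8 fits with a library left out. Among them Fkbp5, a co-chaperone of the glucocorticoid receptor, had 0.88 (SE 0.54), with its highest level of 46.2 CPM in non-responder ESE 3. Oxidative phosphorylation, ribosomal protein and heat shock lists had medians of -0.11, -0.13 and 0.016. Hspd1, a mitochondrial chaperone, was the 1 heat shock member under 0.05 (background 1.28%), at 1.01 (SE 0.41), as in 3 of those 8 fits, and Rpl9, a ribosomal protein gene, was at 0.87 (SE 0.32).

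Genes named in the text of the paper were looked at in this arm as well. Fzd9, Nog and Nr5a2 were left out by the filter on low counts and were not tested, and of those tested none was at an unadjusted p under 0.05 in edgeR. Of the enzymes that write and remove DNA methylation, Dnmt1, the maintenance methyltransferase, was at 162, 230.4 and 230.4 CPM in the ground controls and 213, 276, 228, 192 and 178 CPM in the ESE mice, with a log2 fold change of 0.067 (SE 0.25), and the groups overlapped over most of their range. The de novo methyltransferases Dnmt3a and Dnmt3b had -0.047 (SE 0.35) and 0.36 (SE 0.39). Tet1, Tet2 and Tet3, which oxidise 5-mC, had -0.33 (SE 0.41), 0.36 (SE 0.35) and -0.11 (SE 0.32). The whole DNA methylation list had a median of 0.050 and 9 of 16 above 0. The pluripotency list taken from the study's own table, chosen by the study on these samples and therefore no independent evidence, had 7 of 10 above 0 and a median of 0.32, against -0.0025 with RIN as a covariate. Its members with the smallest p were Prkd1, a protein kinase, at 1.1 (SE 0.72), and Ntrk3, a neurotrophin receptor, at 0.97 (SE 0.68). The BMP receptor Acvr1 had 0.26 (SE 0.33), Ctnnb1, beta-catenin of the Wnt pathway, had 0.11 (SE 0.31), Tert, the telomerase subunit, had 0.54 (SE 0.59), and Wnt6, a Wnt ligand, had 0.37 (SE 0.40). Bmp4 and Pdgfa, both secreted growth factors, had -0.40 (SE 0.28) and -0.37 (SE 0.26), and the kinases Map2k3 and Prkcq had -0.062 (SE 0.39) and 0.46 (SE 0.41).

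Genes of other tissues were high in single ESE libraries. Liver and plasma genes had a median of 5.34 and 10 of 14 higher at an unadjusted p under 0.05 (background 1.28%), and the median was 1.66 without responder ESE 1. Alb, albumin, was at 4.75, 8.26 and 1.1 CPM in the ground controls and 10.5, 0.295, 12.1, 960.1 and 55.6 CPM in the ESE mice. It differed by 5.39 (SE 2.24) on the log2 scale, or by 2.0 with responder ESE 1 left out. Muc2, the mucin of intestinal goblet cells, was at 106 CPM in responder ESE 1 and at 0.767 to 2.42 CPM in every other library. Fast muscle genes had a median of 0.78, and -0.71 without non-responder ESE 3, in which Myh4, a fast myosin, was at 937 CPM. The part of these tissues in the levels of other genes was not tested.

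Whether the difference between ESE mice and ground controls differed from that of the LAR arm was tested as an interaction over all 16 libraries. Of 14381 genes 0 passed in edgeR (0.0% called, smallest adjusted p 0.999), and 690 (4.8%) were at an unadjusted p under 0.05. The smallest p was that of Plbd1, with a log2 fold change of -0.84 here and 0.75 in the LAR arm (difference -1.58, SE 0.34), and the next was that of Fam101b, with -1.63 here and 1.06 there. Of the 30 genes that held, 11 had the same direction in the LAR arm, 4 of the 10 higher and 7 of the 20 lower. The share of all genes with the same direction, or under 0.05, in the LAR arm was not computed. These counts therefore only describe the 30 genes. Those at an unadjusted p under 0.05 there were Mfsd4, at -3.11 (SE 0.61), and B230206H07Rik, at -1.26 (SE 0.49), in the same direction, and Fam101b, at 1.06 (SE 0.43), Plbd1, at 0.75 (SE 0.25), and Krt6a, at 1.22 (SE 0.56), in the opposite one. Lrig1 had 0.22 (SE 0.32) in the LAR arm, Krt79 had 0.49 (SE 0.73) and Sfrp1 had 0.24 (SE 0.37), all on the other side of 0. Of the 5 higher genes described with vessels, Eng had 1.24 (SE 0.91), Egfl7 1.61 (SE 0.99), Nrp1 1.31 (SE 0.99) and Rasip1 0.64 (SE 0.49) there, on the same side, and Lmo2 had -0.58 (SE 0.53), on the other side. For all 5 the levels of the LAR groups overlapped. Eng was at 1.17 to 15.8 CPM in the LAR ground controls and 2.65 to 47.7 CPM in the LAR ESE mice. Among the lists, medians in the LAR arm were 1.26 for endothelium, 1.45 for mitosis, 0.78 for hair follicle stem cells and 0.038 for basal keratinocytes. Because the genes were chosen for their values in the ISS arm, which is one side of the interaction, the differences between the arms for them are descriptions.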

How the data were processed

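Total RNA of hind limb skin was captured with mouse exon probes and sequenced, 1 library per mouse, and 8 of 16 libraries were compared here (5 ESE and 3 ground control). According to the paper, the authors aligned reads to mm10 with STAR and counted them per gene with featureCounts, and the deposited values are raw counts. The strand setting of the counting is not given in the sources used here. RIN, a score, and DV200 and the shares of reads, in percent, are the values deposited by the authors. The share of coding reads on the opposite strand was computed from their mapping statistics. Their other mapping statistics and their columns of fold changes, p-values and FDR were not used.

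Of 14858 genes, 13558 were kept by filterByExpr, scaled by TMM and tested by a robust quasi-likelihood fit and its F test (edgeR 4.0.16, limma 3.58.1, R 4.3.3), and p-values were adjusted after Benjamini-Hochberg with a 0.05 threshold. SE was taken from the fold change and its F value. DESeq2 1.42.0 was an alternative, and tables were made in Python 3.11.15. Depth was 4159342 to 14632084 counts, and low counts limit precision. The test was tried on simulated data, with 2.94% false calls. With 1 library per mouse, p-values measure the spread between mice. Named genes were the genes ranked first by p, 12 higher and 12 lower, with average log2 CPM over 0, up to 10 in each direction that held with every library left out, the 4 members ranked first by p in each list described, and genes the paper names. A few of these are given by their list alone, and 1 is not reported here. The members, the 61 lists and the rules were chosen with earlier results of these data known.

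Alternatives were RLE size factors, no filter, at least 10 counts in every library, DESeq2, edgeR's likelihood ratio test, voom in limma with library quality weights, a fit without robust estimation, RIN as a covariate, all 16 libraries in 4 groups, Rn45s left out, each cohort alone, each library left out and, added after the data were seen, both shallow libraries left out.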

Additional observations from a re-analysis of the deposited data

Results flagged for a closer look

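Among the 5 ESE mice, 148 values of named genes, lists and library measures (depth, Rn45s share, RIN and DV200) were tested. Of these, 20 (13.5%) had 1 mouse whose gap to the nearest other mouse, as a share of the whole range of the group, passed Dixon's 95% critical value for 5 samples. Chance alone flags about 1 in 20 if values follow a normal distribution, which was not checked here, and the levels are not independent of each other. Non-responder ESE 1 stood apart for Krt79 (236 CPM, next 86.1), Dsg3 (172 CPM, next 83.6), Pyy (3.76 CPM, next 1.37), Krt14 (1904 CPM, next 462), Postn (139.6 CPM, next 55.7), Fa2h (5.27 CPM, next 0.714) and Cd74 (74.9 CPM, next 16.9). The summed level of each of the lists t cell (15.8 CPM, next 7.36) and ribosomal protein (5172 CPM, next 2698) was set apart in non-responder ESE 1 as well. Non-responder ESE 3 stood apart for Fkbp5 (46.2 CPM, next 16.2), Myh4 (937 CPM, next 142) and Prkcq (14.4 CPM, next 7.02). The summed level of each of the lists muscle fast (6069.5 CPM, next 1185) and muscle slow (783 CPM, next 353) was set apart in non-responder ESE 3 as well. Responder ESE 1 stood apart for Flt4 (6.43 CPM, next 0.969), Alb (960.1 CPM, next 55.6) and Muc2 (106 CPM, next 2.42). The summed level of each of the lists liver plasma (3976 CPM, next 291) and intestine (253 CPM, next 12) was set apart in responder ESE 1 as well. Responder ESE 2 stood apart for the summed level of the list inflammation (473 CPM, next 284). The ground controls, with 3 mice, were too few for this comparison. The median log2 fold change was 5.34 for the liver and plasma list and 1.66 without responder ESE 1, and 0.78 for the fast muscle list and -0.71 without non-responder ESE 3.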

How the results depend on the processing

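Under 21 alternatives the number of genes called stayed 0, except for 1 by the likelihood ratio test and 907 by limma-voom with quality weights, and the difference between the arms called 0 genes under every alternative run. Leaving out 1 library gave 0 called genes each time, so its lowest and highest counts were both 0. Of 1812 values of 89 named genes under the alternatives, 1773 kept their direction and 39, in 15 genes, did not. 18 of the 39 came from leaving out 1 library. Log2 fold changes of the opposite sign were found with RIN as a covariate for Btg2 (0.048), Acvr1 (-0.19), Map2k3 (0.35), Tert (-0.061), Wnt6 (-0.068), Dnmt1 (-0.23) and Dnmt3a (0.044), with limma-voom for Tchh (1.4), Ctnnb1 (-0.048) and Map2k3 (0.14), with non-responder mice alone for Muc2 (-0.53), Map2k3 (0.018) and Araf (-0.074), with responder mice alone for Ctnnb1 (-0.23), Wnt6 (-0.061), Dnmt1 (-0.16) and Dnmt3a (0.28) and with both shallow libraries out for Tchh (1.63), Ctnnb1 (-0.17), Map2k3 (0.0065) and Dnmt3a (0.12). Ranges over the fits without 1 library crossed 0 for Acvr1 (-0.010 to 0.50), Araf (-0.073 to 0.19), Cd74 (-2.54 to 0.26), Ctnnb1 (-0.041 to 0.25), Dnmt1 (-0.091 to 0.15), Dnmt3a (-0.36 to 0.11), Flt1 (-0.043 to 0.48), Map2k3 (-0.34 to 0.24), Muc2 (-0.092 to 4.23), Tchh (-1.56 to 1.83), Tet1 (-0.63 to 0.16) and Tet3 (-0.29 to 0.0076). Of 55 lists, 35 medians changed sign under some alternative and 21 when 1 library was left out. The filter at 10 counts in every library left no gene of the T cell and mast cell lists. The cause of these differences was not tested. With both shallow libraries out, the number of genes at an unadjusted p under 0.05 was 2013 instead of 346, and with RIN as a covariate it was 126. No paired analysis was possible because the labels give the groups no shared replicate numbers. Depth limits genes such as Kcnj8 and 1700048O20Rik, with 0 to 2 counts in ground controls, which passed the filter only through the ESE mice.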
